A study of Mus musculus with 4 samples.

Results

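The genes described here belong to 2 linked stress programmes of the cell. The first is that of the transcription factor ATF4 and the amino acid genes it controls, serine synthesis among them, and the second is the unfolded protein response of the endoplasmic reticulum. The listed genes were 34, of which 20 were ATF4 and amino acid genes and 14 were endoplasmic reticulum genes. Each was represented by the brightest of its probe sets with a single gene symbol, the one with the highest mean over all arrays. All 34 passed the filter on dim probe sets and stood among 11956 genes tested.

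Expression was measured in 4T1, a mouse mammary carcinoma line, separated by CD44v8-10, the form of the adhesion receptor CD44 whose mRNA keeps certain variant exons. There were 2 CD44v8-10-positive and 2 CD44v8-10-negative samples, each hybridised as total RNA to a one-colour Affymetrix array, and the comparison asked how far the 2 kinds of cell differ in expression. Both groups were grown in RPMI medium with bovine serum under normal oxygen and picked by hand under a microscope, and the labels name no treatment. Nothing in the labels says that the 2 samples of a group came from separate cultures, so the spread behind each p-value may be technical and covers these samples alone. Signals are quantile-normalized intensities without a unit, and differences are positive minus negative on the scale log2(signal + 16), which understates differences of dim genes.

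ATF4 is made when kinases that sense missing amino acids, a stressed endoplasmic reticulum or other damage phosphorylate the initiation factor eIF2 and most translation slows. It then switches on genes that make and import amino acids, and others that stop growth or lead to cell death. In the endoplasmic reticulum, unfolded proteins also activate ATF6 and the splicing of Xbp1 mRNA, and both factors raise the chaperones, folding enzymes and degradation factors of that compartment. Tumour cells use these programmes when protein synthesis or nutrient demand is high.

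The arrays differed in brightness, with trimmed mean intensities of 237 and 219 in positive replicates 1 and 2 and of 196 and 345 in negative replicates 1 and 2. By limma, 9 of all genes tested (0.0753%) had an adjusted p under 0.05, each of them higher in positive cells. At an unadjusted p under 0.05, 321 (2.68%) were higher and 211 (1.76%) lower. The splicing regulator Esrp1 was among the 9, with signals of 1348 and 1365 in positive and 64.1 and 30.9 in negative cells. The 5 epithelial markers were all above the filter, with summed signals of 26500 and 28500 in positive and 21600 and 26500 in negative samples, most of it from the keratins Krt18 and Krt8. Of these markers 2 were among the 9 genes, the adhesion molecule Epcam (2.53-fold higher in positive cells, limma adjusted p 0.0118) and the keratin Krt14 (3.91-fold, adjusted p 0.0055). Of other cell types, 5 of 7 macrophage markers, 3 of 6 fibroblast markers, 0 of 4 endothelial and 0 of 2 adipocyte markers passed the filter. Its level was 19.4, and passing it is not a detection call. The macrophage markers Ptprc and Lyz2 and the fibroblast markers Col1a1, Col3a1 and Pdgfrb did not pass. A further adipocyte marker, Plin1, had no probe set with a single gene symbol and was not measured. The macrophage sums were 497 and 658 in positive and 437 and 406 in negative samples and the fibroblast sums 146 and 129 against 188 and 172, and their part in the results below was not tested.

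No ATF4, amino acid or endoplasmic reticulum gene passed the test between positive and negative cells. By limma, 0 of the 34 had an adjusted p under 0.05, where 0.0753% of all genes did, and the lowest adjusted p was 0.985. At an unadjusted p under 0.05 there was 1 gene, Cebpb, lower in positive cells, where 1.76% of all genes were lower and 4.45% differed in either direction at that level. The log2 differences ran from -0.69 for Vldlr to 0.32 for Pdia6, with a median of -0.09 beside 0.03 over all genes, and none reached 2-fold. For 30 of the 34 the 95% interval of the difference lay within 2-fold in both directions, and for Atf5, Cebpb, Trib3 and Vldlr it reached beyond 2-fold in one direction or the other. In bulk RNA, fewer cells expressing a gene and less of its RNA per cell cannot be told apart.

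**Figure D1:**
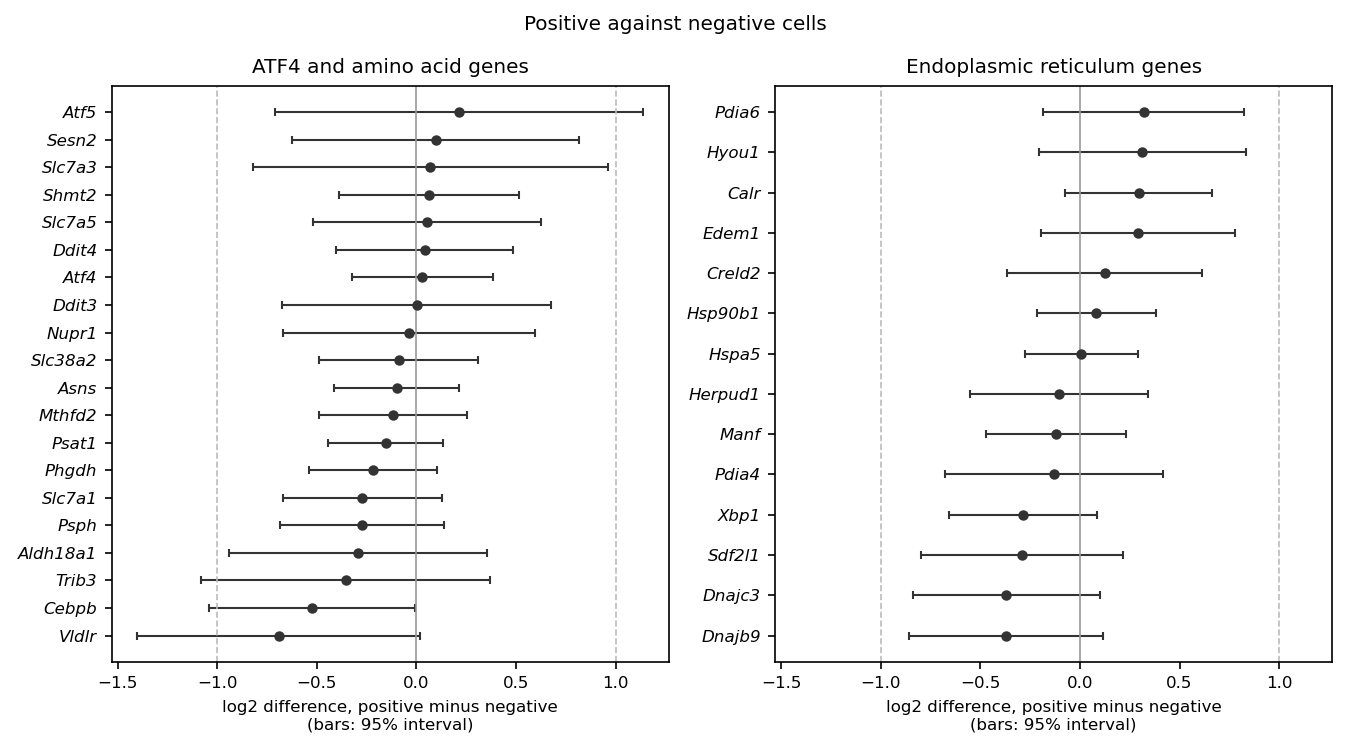
Log2 difference of each gene, positive minus negative cells, on the horizontal axis, as the limma estimate (point) with its 95% interval (bar); dashed lines mark 2-fold. Except for that of Cebpb, which ends at -0.0089, every interval spans 0.

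Among the regulators, the mRNA of Atf4 itself gave like signals in the 2 groups at its brightest probe set. Its signals were 4185 and 5417 in positive replicates 1 and 2 and 4470.2 and 4868 in negative replicates 1 and 2, a log2 difference of 0.03 ± 0.16 (SE, n = 2 each; limma adjusted p 0.993). The groups overlapped. Another Atf4 probe set above the filter gave 1489 and 2789 in positive and 1158 and 2327 in negative samples, overlapping too. Its log2 difference was 0.31, and it was higher in replicate 2 by log2 values of 0.90 and 1.00. ATF4 is controlled mainly through translation, which arrays do not measure.

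Its related factor Atf5 varied more than any other of the 34 between arrays of one group. Its signals were 433 and 846.5 for positive replicates 1 and 2 against 294 and 912 for the negative ones. Ddit3, which encodes the cell-death factor CHOP, gave 326 and 537 against 302 and 578, with a log2 difference of 0.00 ± 0.31. Trib3, a pseudokinase that ATF4 and CHOP induce and that restrains them, gave 794 and 1176 against 800.4 and 1917. In all of these the groups overlapped, and within each group replicate 2 was the higher array. The log2 difference was 0.21 for Atf5 (95% interval -0.71 to 1.14) and -0.35 for Trib3 (-1.08 to 0.37).

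Cebpb, a partner that pairs with ATF4 on DNA, was the regulator with separate groups. Its signals were 1419 and 1435 in positive and 1560.2 and 2719.6 in negative cells, a log2 difference of -0.53 ± 0.24 (unadjusted p 0.0467, limma adjusted p 0.985). Both positive arrays lay below both negative ones, but the gap came mostly from negative replicate 2, without which the difference was -0.13. Nupr1, a stress-induced chromatin protein, gave 1926 and 2345 against 1465 and 3247. Ddit4, an inhibitor of the growth kinase mTORC1, gave 1906 and 2233 against 1669 and 2408. Sesn2, a leucine sensor that also inhibits mTORC1, gave 124 and 247 against 122 and 217, so that the arrays of a group lay far apart and the groups overlapped.

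The enzymes of serine and one-carbon metabolism were well above the filter level on every array. Phgdh catalyses the first step from glycolysis to serine, and gave 6720.0 and 6424 in positive and 6766 and 8635 in negative samples. Psat1, the second enzyme of the path, gave 7473 and 7695 against 7836 and 9101. Psph, the last, gave 3189 and 3359 against 3255 and 4809.5. All 3 had slightly negative log2 differences, -0.22, -0.16 and -0.27, each with a limma adjusted p of 0.985. For Phgdh and Psat1 the groups did not overlap, as in 32.3% of all genes, but their other probe sets above the filter gave -0.15 to 0.19 for Phgdh and 0.07 for Psat1.

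The mitochondrial folate enzymes Shmt2 and Mthfd2, which turn serine into one-carbon units, had differences of 0.06 and -0.12. Shmt2 gave 3942 and 4906 against 3344 and 5303, and Mthfd2 1961 and 1923 against 2038 and 2180.2. Shmt2 had 4 probe sets above the filter, and they disagreed, from -1.22 to 0.42. The lowest rested on one array, positive replicate 1, at 44.2 where the other arrays gave 331 to 390.2. Asns, asparagine synthetase and a standard ATF4 target, gave 5331 and 5850.45 against 5576 and 6416. Aldh18a1, which starts proline synthesis, gave 1839 and 2714 against 1874 and 4012, with overlapping groups.

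The amino acid transporters showed no common direction. Slc7a5, the leucine importer of the LAT1 complex, gave 1822 and 3003 in positive and 1761 and 2889 in negative samples. Slc7a1, which imports arginine and lysine, gave 1266 and 1175 against 1516 and 1436, so that its groups did not overlap, with a log2 difference of -0.27 ± 0.18 (limma adjusted p 0.985). The other probe sets of Slc7a1 gave 0.16 and -0.40. Slc38a2, a glutamine and alanine importer, gave 3214 and 2995 against 2797 and 3895. Slc7a3, another cationic amino acid transporter, was near the filter level of 19.4 on every array, at 18.3 and 28.9 against 17.35 and 25.9. The lipoprotein receptor Vldlr gave 229.6 and 141 against 209 and 433, and its difference of -0.69 was -0.19 without negative replicate 2.

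**Figure D2:**
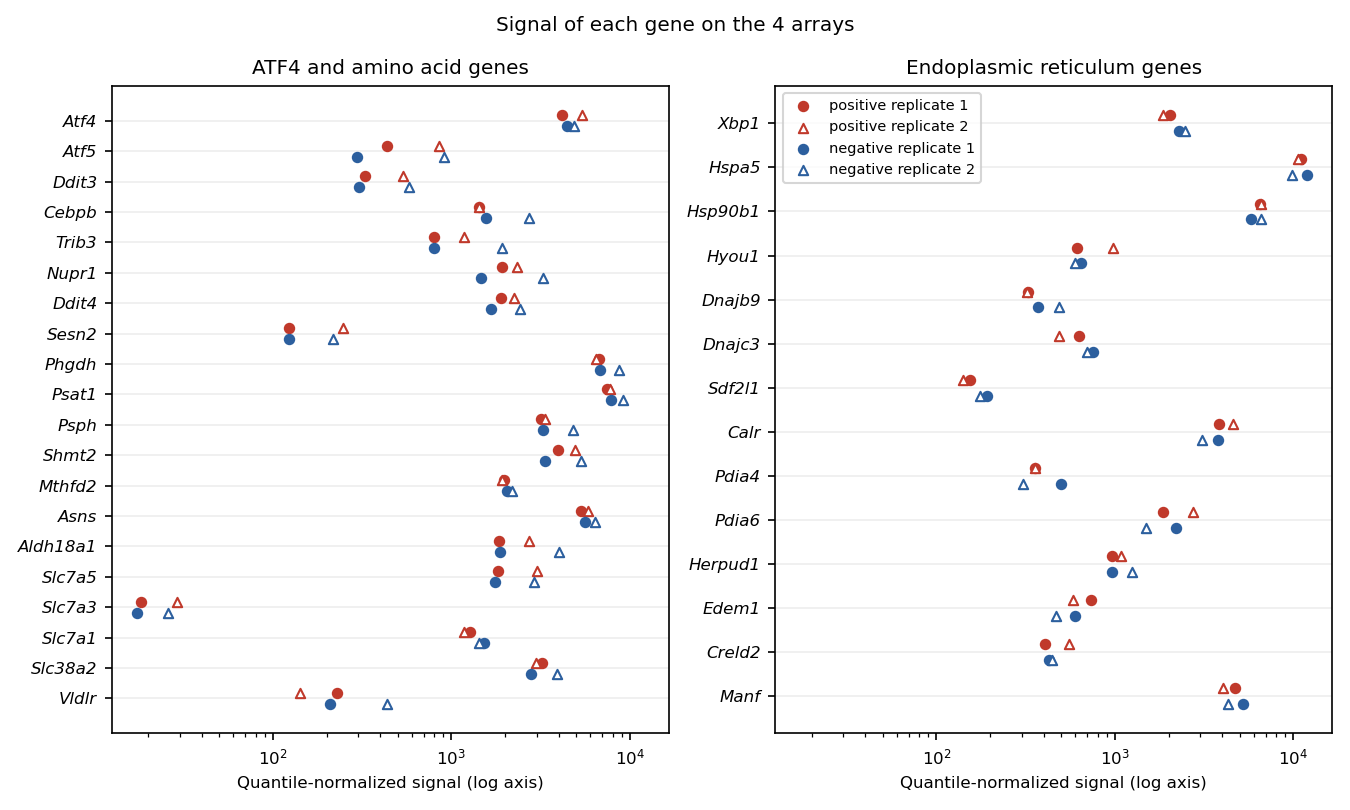
Quantile-normalized signal (log axis) of each gene on the 4 arrays, with positive samples in red and negative samples in blue, replicate 1 as filled circles and replicate 2 as open triangles. For genes such as Atf5, Ddit3, Sesn2 and Slc7a5 both triangles lie to the right of both circles, whatever the colour.

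The ATF4 genes also differed between arrays of the same group. In 15 of the 20 ATF4 and amino acid genes (75%) replicate 2 was above replicate 1 in both groups, where 27.3% of all genes were, and in 1, Slc7a1, it was below in both, where 27.9% were. Replicate 2 was the higher array in the positive group in 15 of the 20 genes and in the negative group in 19, against 50.8% and 48.4% of all genes. In all 8 regulators it was higher in both. Atf5 was 1.92-fold higher in positive replicate 2 than in positive replicate 1 and 2.99-fold higher in negative replicate 2 than in negative replicate 1. The same ratios were 1.62 and 1.87 for Ddit3, 1.47 and 2.37 for Trib3, 1.89 and 1.68 for Sesn2, 1.64 and 1.63 for Slc7a5 and 1.47 and 2.13 for Aldh18a1. The median ratio over the 20 genes was 1.19 in positive and 1.53 in negative cells, against 1.01 and 0.991 over all genes.

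Among the serine and folate enzymes, Psat1 was 1.03-fold and 1.16-fold higher in replicate 2 and Psph 1.05-fold and 1.48-fold, while Phgdh and Mthfd2 were lower in positive replicate 2 and higher in negative replicate 2. These values rest on 1 probe set per gene: another of Phgdh was higher in replicate 2 of both groups, by log2 values of 0.68 and 0.64, and so was that of Psat1, by 0.45 and 0.35. With all probe sets of a gene averaged, 19 of the 20 genes were higher in replicate 2 of both groups, where 27% of all genes were. For 18 of the 20 genes the larger of the 2 differences within a group exceeded the difference between group means, as it did for 80.9% of all genes. Of the 45 probe sets of these genes above the filter, 33 were higher in replicate 2 in both groups and 1 lower in both. Many are several probe sets of one gene, so they are not separate members. Of the 31 probe sets of the endoplasmic reticulum genes, 7 were higher in both and 11 lower in both. Shares over all probe sets are not given, and over all genes, at 1 probe set each, they were 27.3% and 27.9%.

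The endoplasmic reticulum genes were counted in the same way. Replicate 2 was above replicate 1 in both groups in 3 of 14 (21.4%), Hsp90b1, Herpud1 and Creld2, near the 27.3% of all genes. It was below in both in 6 of 14 (42.9%), where 27.9% of all genes were. The median ratio of replicate 2 to replicate 1 was 0.994 in positive and 0.921 in negative cells, against 1.01 and 0.991 over all genes. This contrast between the 2 gene groups is a count and was not tested. With arrays centred on one median 2 of the 14 were above in both, against 21.9% of all genes. There were 3 with one trimmed mean and 5 with no scaling, against 33.1% and 44.2%. The count below in both is given for quantile normalization alone.

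**Figure D3:**
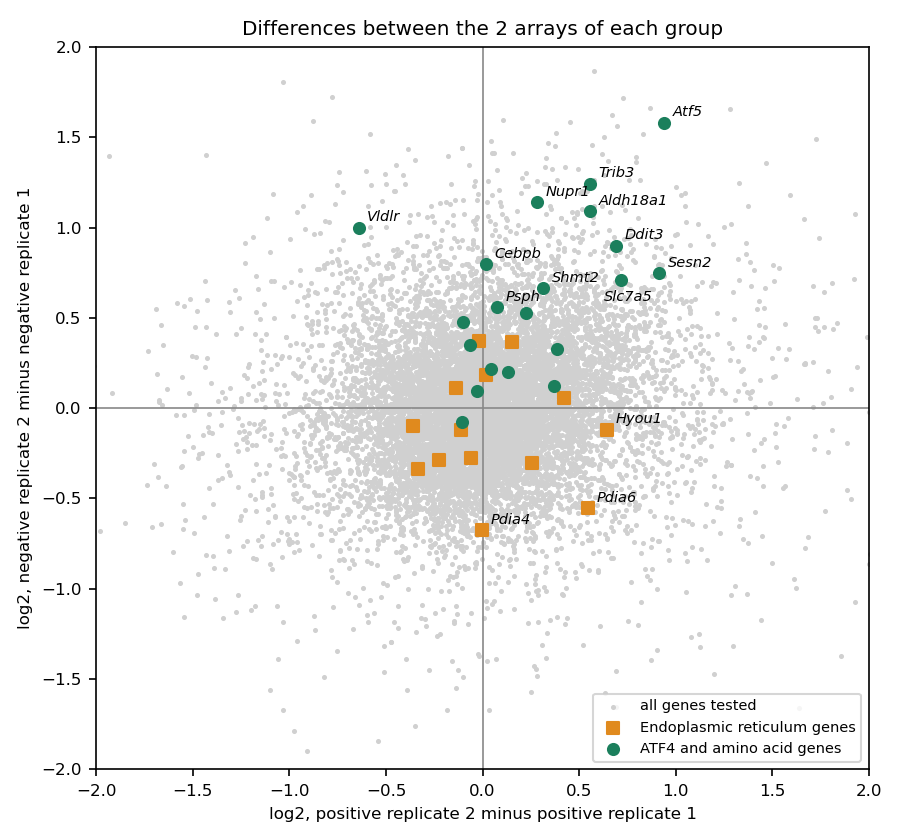
Each point is a gene, placed by the log2 difference between the 2 positive arrays (horizontal axis) and between the 2 negative arrays (vertical axis); 26 genes fall outside the axes. The ATF4 and amino acid genes (green) gather in the upper right, and the endoplasmic reticulum genes (orange squares) lie around 0.

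How arrays are scaled also bears on the count of ATF4 and amino acid genes that were higher in replicate 2 of both groups. It was 9 of 20 with arrays centred on one median, 11 with one trimmed mean and 12 with no scaling, against 21.9%, 33.1% and 44.2% of all genes. Under all 4 scalings replicate 2 was above replicate 1 in both groups in 8 of the 20 genes (40%, against 17.5% of all genes). They were Atf5, Ddit3, Trib3, Sesn2, Shmt2, Aldh18a1, Slc7a5 and Slc7a3, the last of them near the filter level of 19.4 on every array. Centring on one median moved the median of all genes to -0.20 in positive and 0.14 in negative replicate 2 relative to replicate 1, and no scaling moved it to 0.76 in the negative group. Measured against the median of all genes, 10 of the 20 lay above it in both groups under all 4 scalings (50%, against 22.8%), these 8 and Nupr1 and Ddit4.

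The labels give no meaning to the replicate numbers beyond counting the samples. Before normalization the median intensity was higher in replicate 2 of both groups, at 33.3 and 39.2 in positive and 28.6 and 52.3 in negative replicates 1 and 2, while the trimmed mean was lower in positive replicate 2 and higher in negative replicate 2. The ratio of 3' to 5' control probe sets for actin was higher in replicate 2 of both groups, at 1.2 and 1.35 in positive and 1.17 and 1.25 in negative samples, while that for Gapdh was 0.782 and 0.783 against 0.778 and 0.839. The part of brightness and RNA quality in the pattern was not tested.

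Leaving out single arrays moved the direction of the ATF4 genes. With all arrays 12 of the 20 lay below 0, where 45.7% of all genes did. Without positive replicate 2, and likewise without negative replicate 1, all 20 lay below 0, with medians of -0.20 and -0.31. The medians of all genes in these fits were 0.015 and 0.032. Without negative replicate 2, 6 lay below 0 and the median was 0.19, and without positive replicate 1 there were 11 and the median was -0.02. Over all genes the medians were then 0.013 and 0.043. These moves follow by arithmetic from replicate 2 being the higher array in most of these genes, and are no separate result. The share of all genes below 0 is given for the fit with all 4 arrays alone. In none of these fits did a gene of the 34 pass by limma, and the lowest adjusted p was 0.226, for Cebpb without negative replicate 1.

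**Figure D4:**
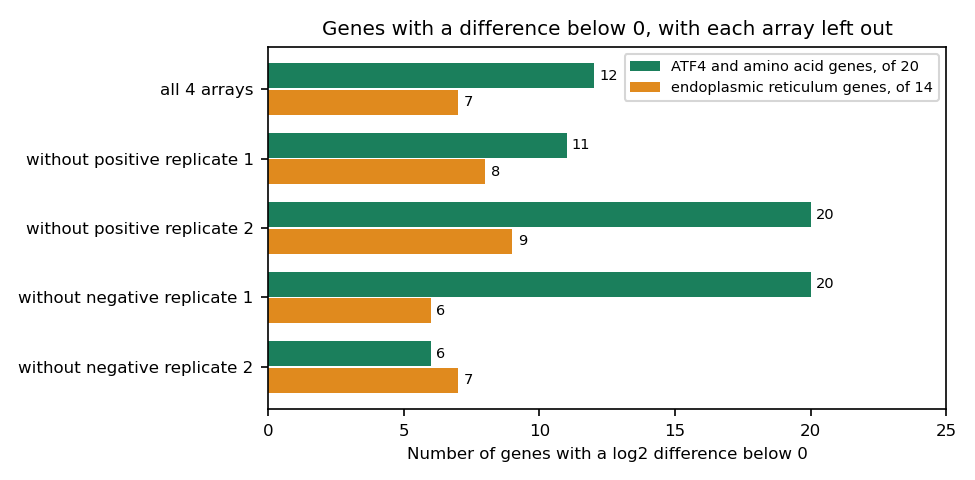
Bars count the genes with a log2 difference (positive minus negative) below 0, of the 20 ATF4 and amino acid genes (green) and the 14 endoplasmic reticulum genes (orange), with all 4 arrays and with each array left out. The green count runs from 6 to 20 and the orange count from 6 to 9.

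Promoters of the ATF4 genes were searched for the core of the C/EBP-ATF response element, TGATGNAA, to which ATF4 binds with a C/EBP partner. RefSeq promoter sequences of 250 bases before to 50 bases after the start site (GRCm38.p6) were found for 18 of the 20 genes, and 4 (22.2%) held it on either strand, against 4.51% of 27025 genes. They were Asns, Nupr1, Trib3 and Vldlr, all but Trib3 with the match before the start site; that of Herpud1, among the endoplasmic reticulum genes, also held it. The windows before the start sites are shown, with the element in capitals, because the element is the known binding site of ATF4. The match in Asns reads as written, and the others read as its reverse complement.
Asns (chr6:7693210-7693252, minus strand): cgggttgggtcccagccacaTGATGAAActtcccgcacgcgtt
Nupr1 (chr7:126625553-126625600, minus strand): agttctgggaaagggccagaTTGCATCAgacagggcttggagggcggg
Vldlr (chr19:27216800-27216847, plus strand): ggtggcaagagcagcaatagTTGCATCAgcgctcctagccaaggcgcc
Herpud1 (chr8:94386297-94386344, plus strand): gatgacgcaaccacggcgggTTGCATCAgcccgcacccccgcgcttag
In 27 further genes of the eIF2 and ATF4 path with a sequence, 8 (29.6%) held it, among them Atf3 and Chac1. Of the 5 genes named first, replicate 2 was above replicate 1 in both groups in Asns, Nupr1, Trib3 and Herpud1, but Vldlr went down in positive and up in negative cells, at ratios of 0.641 and 2.00. As 15 of all 20 ATF4 and amino acid genes (75%) were higher in both, this does not set genes with the element apart. Atf5, Ddit3 and Sesn2 held no match in this window.

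The endoplasmic reticulum genes were read separately. Xbp1, whose spliced mRNA encodes a transcription factor of the response, gave 2049 and 1864 in positive and 2291 and 2477 in negative samples. Its groups did not overlap, with a log2 difference of -0.28 ± 0.17 (limma adjusted p 0.985), and its 4 probe sets above the filter gave -0.42 to -0.14. Splicing of Xbp1 was not analysed here. Of the 14 genes 7 had a positive difference, and their median was -0.05.

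Among the chaperones, Hspa5, which encodes BiP, the main Hsp70 of the compartment and a marker of the response, overlapped between the groups. It gave 11057 and 10623 in positive and 11878 and 9797 in negative samples. Its log2 difference was 0.01 ± 0.13 (95% interval -0.28 to 0.29, limma adjusted p 0.997), so a change of more than 1.22-fold up or 1.21-fold down lay outside the interval. Further Hspa5 probe sets gave -0.15 and 0.50. Hsp90b1, the Hsp90 of the compartment, gave 6479 and 6569 against 5786 and 6569, and overlapped too. Calr, the calcium-binding lectin calreticulin, gave 3836 and 4581 against 3793 and 3073, a log2 difference of 0.29 ± 0.17 (limma adjusted p 0.985), and was the one gene of the 34 whose positive arrays both lay above both negative arrays, which 18.5% of all genes did. Its 3 probe sets gave 0.29 to 0.39.

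Hyou1, a large Hsp70 relative that exchanges nucleotide on BiP, gave 617 and 974 against 648 and 595, with positive replicate 2 alone high. This was a log2 difference of 0.31, while the other Hyou1 probe sets above the filter gave -0.05 and -0.18. Dnajb9, a J protein that helps BiP hold the sensor IRE1 inactive, gave 325 and 321 against 369.8 and 484. Dnajc3, a J protein also known as P58IPK, gave 633 and 489 against 749 and 698. Sdf2l1, which works with J proteins in the compartment, gave 154 and 141 against 193 and 176. In these 3 genes both positive arrays lay below both negative arrays, as in 13.8% of all genes and in 9 of the 34. Their log2 differences were -0.37, -0.37 and -0.29, each with a limma adjusted p of 0.985. Dnajc3 had 5 probe sets above the filter, which spread from -0.37 to 0.21.

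The protein disulfide isomerases Pdia4 and Pdia6, which form and rearrange disulfide bonds, differed between the negative arrays. Pdia4 gave 357 on both positive arrays and 499.7 and 307 on the negative ones. Pdia6 gave 1865 and 2734 against 2192 and 1489, a log2 difference of 0.32, while its other, dimmer probe set gave 0.004. Of the degradation factors, Herpud1, which assembles the ubiquitin ligase complex that clears misfolded proteins, gave 966 and 1076 against 966 and 1249.9. Edem1, which directs misfolded glycoproteins to degradation, gave 736 and 581 against 599 and 471, with a log2 difference of 0.29 ± 0.22 (limma adjusted p 0.985). Manf, a protein that is retained in the compartment and secreted under stress, gave 4711 and 4023 against 5235 and 4278. Creld2, likewise induced and secreted under stress, gave 408 and 552 against 426 and 443. In all 6 of these genes the groups overlapped.

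Promoters of these genes were searched as well. The endoplasmic reticulum stress response element, CCAAT, 9 bases of any kind and CCACG, is bound by the factor NF-Y together with ATF6 or XBP1. It was found on either strand in the promoter of 6 of the 12 genes with a RefSeq sequence (50%), against 0.137% of 27025 genes, and in 0 of 18 ATF4 and amino acid genes. The windows are shown since the element is the known binding site of these factors, with the element in capitals. Hspa5, Pdia6 and Dnajc3 hold it as written, Calr and Creld2 as its reverse complement, and Hsp90b1 once each way, of which the copy nearer the start site is shown.
Hspa5 (chr2:34772005-34772063, plus strand): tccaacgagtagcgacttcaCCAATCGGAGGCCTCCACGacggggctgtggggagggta
Pdia6 (chr12:17266471-17266529, plus strand): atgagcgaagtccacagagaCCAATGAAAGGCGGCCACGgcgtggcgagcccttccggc
Dnajc3 (chr14:118937807-118937865, plus strand): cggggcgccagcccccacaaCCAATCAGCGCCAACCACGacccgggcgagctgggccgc
Calr (chr8:84847055-84847113, minus strand): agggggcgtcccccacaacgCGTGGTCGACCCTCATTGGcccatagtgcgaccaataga
Creld2 (chr15:88819500-88819558, plus strand): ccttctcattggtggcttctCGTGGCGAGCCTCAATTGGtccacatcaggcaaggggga
Hsp90b1 (chr10:86705513-86705571, minus strand): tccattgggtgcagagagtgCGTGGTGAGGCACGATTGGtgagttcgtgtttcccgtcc
The match in Hspa5 lay from 65 to 47 bases before the start site and that in Calr from 162 to 144. The 6 genes did not move as one between the groups, with log2 differences of 0.01 for Hspa5, 0.32 for Pdia6, -0.37 for Dnajc3, 0.29 for Calr, 0.12 for Creld2 and 0.08 for Hsp90b1. In 36 further endoplasmic reticulum genes with a sequence, 4 (11.1%) held the element. The related element II, ATTGG, 1 base of any kind and CCACG, was found in 1 of those 36, Dnajb11. Of the 12 genes searched first Herpud1 alone held element II, against 0.0444% of all genes.
Herpud1 (chr8:94386357-94386407, plus strand): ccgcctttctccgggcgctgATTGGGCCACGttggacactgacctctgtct

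Further genes of both programmes were read from lists. Of 33 further genes of the eIF2 and ATF4 path 30 were tested, 0 passed by limma in either direction, and 0 lay under an unadjusted p of 0.05, with a median log2 difference of 0.02. Over the whole list the differences ran from -0.61 to 0.36. Positive arrays lay apart above the negative ones in 4 genes and below in 1, where 18.5% and 13.8% of all genes did. Among these genes with separate groups the highest were Atf3, a stress-induced repressor, at 0.36 and the cytosolic folate enzyme Shmt1 at 0.27. The lowest were the neutral amino acid transporter Slc1a4 at -0.05 and the kinase Eif2ak3, which encodes PERK. Eif2ak3 was at 0.18, so it too was higher in positive cells. Replicate 2 was above replicate 1 in both groups in 17 of the 30 (56.7%) and below in 2, where 27.3% and 27.9% of all genes were. This count and those of the lists below are given for quantile normalization alone. Chac1, an enzyme that breaks down glutathione and a direct ATF4 target, was picked after its values were seen as an example, and gave 897 and 1348 in positive and 841 and 1321 in negative samples.

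Of 19 aminoacyl-tRNA synthetases 18 were tested and 0 passed in either direction, with a median of 0.02. Kars1 at 0.23 and Qars1 at 0.15 were the highest with separate groups and Farsb at -0.11 and Tars1 at -0.07 the lowest. In replicate 2 of both groups 9 of the 18 (50%) were higher and 3 lower, where 27.3% and 27.9% of all genes were. Of 44 further endoplasmic reticulum genes 43 were tested and 0 passed by limma, with a median of 0.04. At an unadjusted limma p under 0.05, 1 gene of the 43 was lower and 0 higher. Of all genes 1.76% were lower and 4.45% differed in either direction at that level, so 1 gene is near the background. The gene was Hspa13, an Hsp70 relative, with 1068 and 724 against 1369.5 and 1340.3. Its log2 difference was -0.61 ± 0.22 (limma unadjusted p 0.0155, adjusted p 0.985). Uggt1, the glucosyltransferase that checks glycoprotein folding, was at -0.39, the lowest but Hspa13 among genes of the list with separate groups. Atf6b, a relative of ATF6, and Wfs1, a membrane protein of the compartment, were the highest with separate groups, at 0.40 and 0.39. In this list 13 of 43 (30.2%) were higher in replicate 2 of both groups, near the 27.3% of all genes. In 16 (37.2%) it was lower in both, where 27.9% of all genes were.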

How the data were processed

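The deposited values were linear intensities, 1 per probe set and array, from 0.1 to 22695.6 over 45101 probe sets. The submitters' processing notes name GCOS; the summary method, background correction and scaling were not stated in those notes or the labels, and no detection calls were used. Gene symbols came from GEO's annotation of the array: 34945 had 1 symbol, 932 several and 9160 none, besides 64 controls. By gene number 34741 were matched to the RefSeq gene table (GRCm38.p6), which changed 0 symbols.

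The array trimmed means (2% at each end) differed, so arrays were quantile normalized and transformed as log2(value + 16). Controls and probe sets below the 40th percentile of the mean were removed (filter level 19.4), leaving 27022, and the highest-mean probe set per gene was kept. The test was two-sided, by limma 3.58.1 (R 4.3.3), with lmFit, eBayes with trend, 12.2 degrees of freedom and Benjamini-Hochberg adjustment across the genes tested. Lists were described by counts and medians, with no test of a list. In simulated data of this comparison over 11956 genes limma recovered 35.2% of those given a log2 change of 1, 89.8% at 2, 96.6% at 3 and 98.4% at 4. The number of arrays limits the precision.

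The members, lists and alternatives were chosen with earlier results of these data known. All 34 genes were named whatever their values; of each other list, genes past the threshold and the 2 highest and 2 lowest with separate groups. Alternatives were median centring, one trimmed mean, no scaling, pseudocounts of 1 and 64, no filter, averaging all probe sets of a gene, probe sets ending in _x_at or _s_at left out, no trend, the replicate number as a block and each array left out (normalized anew, same probe sets).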

Additional observations from a re-analysis of the deposited data

How the results depend on the processing

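No gene of the 34 passed by limma under any alternative that kept all 4 arrays, where the lowest adjusted p was 0.545. Under all 14 alternatives 13 kept the sign of their difference: Calr, Cebpb, Dnajb9, Dnajc3, Edem1, Mthfd2, Pdia6, Phgdh, Psat1, Sdf2l1, Slc7a1, Vldlr and Xbp1 (Phgdh in 13, having no probe set once less specific ones were left out). Dropping the filter or the trend, or adding the replicate block, left these differences unchanged, so those alternatives could not turn a sign. Where groups were separate, leaving out an array could turn a sign only through the new normalization. Of the 13, Phgdh, Psat1, Mthfd2, Slc7a1 and Dnajc3 had other probe sets above the filter with the opposite sign. Over all genes, the 9 higher and 0 lower became 20 and 5 with arrays centred on one median, 3 and 0 with no scaling or with no filter, 2 and 0 without the trend, and 6 to 19 higher and 0 to 2 lower with an array left out. The replicate numbers are not said to pair samples; same-numbered arrays deviated together with a correlation of 0.116 over genes, and with the replicate block 15 genes were higher and 3 lower, 0 of them among the 34.

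Signs turned with arrays centred on one median for Atf4 (-0.00287), Ddit3 (-0.119), Ddit4 (-0.0521), Sesn2 (-0.0656), Slc7a5 (-0.0229) and Creld2 (-0.00497). With one trimmed mean they turned for Ddit3 (-0.00676), Nupr1 (0.00261) and Asns (0.00519). With no scaling, which moved the median of all genes to -0.149, they turned for Atf4 (-0.0826), Ddit3 (-0.199), Ddit4 (-0.132), Sesn2 (-0.145), Shmt2 (-0.0517), Slc7a5 (-0.103), Hspa5 (-0.0247), Hsp90b1 (-0.00116), Creld2 (-0.0847) and Cd44 (-0.0568). A pseudocount of 64 turned Ddit3 (-0.00187), averaging all probe sets of a gene turned Shmt2 (-0.17) and Herpud1 (0.0301), and leaving out less specific probe sets Aldh18a1 (0.0211) and Hyou1 (-0.0494).

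With each array left out the difference ranged from -0.155 to 0.217 for Atf4, -0.574 to 1.02 for Atf5, -0.448 to 0.458 for Ddit3, -0.973 to 0.271 for Trib3, -0.599 to 0.54 for Nupr1, -0.219 to 0.311 for Ddit4 and -0.365 to 0.551 for Sesn2. It ranged from -0.547 to 0.00604 for Psph, -0.268 to 0.409 for Shmt2, -0.188 to 0.00046 for Asns, -0.828 to 0.257 for Aldh18a1, -0.304 to 0.42 for Slc7a5, -0.127 to 0.268 for Slc7a3 and -0.321 to 0.158 for Slc38a2. Among endoplasmic reticulum genes it ranged from -0.149 to 0.143 for Hspa5, -0.0102 to 0.177 for Hsp90b1, -0.00823 to 0.628 for Hyou1, -0.471 to 0.206 for Pdia4, -0.285 to 0.0798 for Herpud1, -0.0869 to 0.329 for Creld2 and -0.267 to 0.0258 for Manf. For Cd44 it ranged from -0.0479 to 0.263. A lone array was assumed to vary like the other group, and the causes were not tested.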
